A study of Yarrowia lipolytica with 9 samples.

Results

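The transcripts described here are those whose level was graded across 3 strains of Yarrowia lipolytica, an oleaginous (oil-storing) yeast, with yl_11 between yl_10 and yl_12. They number 110, of 4446 RefSeq transcripts within the limits of level and length given below and of 6366 features in the whole table, and 41 of them are in rising and 69 in falling order from yl_10 through yl_11 to yl_12. Total RNA was sequenced from 3 libraries of each strain, 9 in all, after growth in flasks for 72 h at 28 °C with shaking at 250 rpm. Per the labels, all 3 strains share the host ATCC 201249 and carry transformed heterologous genes, which the labels do not name for any strain. The labels present the series as a comparison of strains that make different amounts of lycopene, tie no amount to a strain and name no parent, so "rising" and "falling" refer only to the order yl_10, yl_11, yl_12. The labels do not say whether a strain's libraries had separate cultures behind them, or whether a strain is 1 transformant, so the spread between them may be technical.

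Lycopene is a red carotenoid that Y. lipolytica does not make by itself. Strains that make it carry foreign carotenoid genes, which draw on geranylgeranyl diphosphate from the mevalonate pathway, and this pathway starts from acetyl-CoA, also the source of the storage lipids for which this yeast is known. The reference gene table used here pairs accessions with locus tags but with no product names, so the transcripts are named by tag and accession and no function is given to them.

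The members were chosen by their measured levels in all 9 libraries. The level used was CPM, the read count scaled to its library total, on a log2 scale after a count of 0.5 was added. A member had a coding length above 300 and below 4000 bp, a mean of 10 to below 1000 CPM over the 9 libraries, strain means that moved in 1 direction by at least 0.2 (log2) at each step, and no overlap between the yl_10 and yl_12 libraries. The rule leaves out 1 accession, XM_505264.1. Since these criteria used every contrast between the strains, the levels below are a description, with no test. Of the 4446 transcripts within the limits, 9.69% had all yl_12 libraries above all yl_10 libraries and 28.2% had them all below, while 1.03% had both steps of at least 0.2 upward and 1.71% downward. The whole rule kept 0.922% as rising and 1.55% as falling.

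Library totals ranged from 7035777 to 16424183 counts, so 10 CPM stood for 70.4 counts in the smallest library. The limit applied to the mean over the 9 libraries, and single libraries held less. The lowest library of YALI1_B07331g, yl_10 replicate 3, held 2.70 CPM. In 1 library of each strain, yl_10 replicate 3, yl_11 replicate 1 and yl_12 replicate 3, an earlier analysis of these data had found values that stood apart. Pairwise, the departures of these 3 from their strain averages had r = 0.48, 0.40 and 0.66 over the 4446 transcripts, a description with no test, since the transcripts share the libraries. Results are therefore given with and without these 3 libraries. Scaling by library totals placed the median transcript at -0.06 (log2) in yl_12 against yl_10 and at -0.02 in yl_11 against yl_10.

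**Figure D1:**
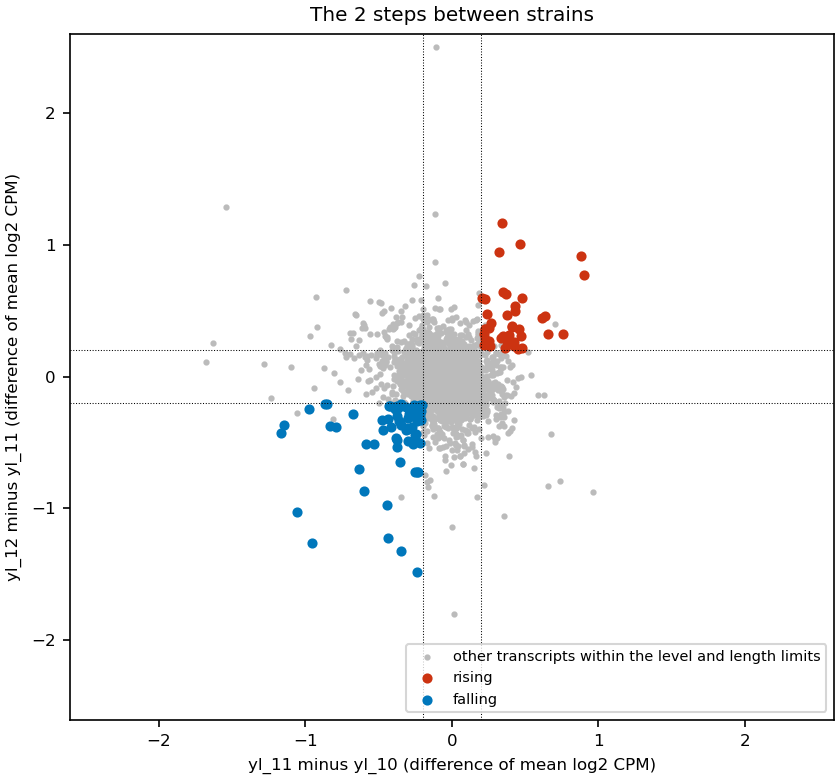
Difference of mean log2 CPM between yl_11 and yl_10 (horizontal axis) and between yl_12 and yl_11 (vertical axis) for the 4446 transcripts within the limits of level and length, 1 point each. Dotted lines mark steps of 0.2 in either direction. The 41 rising transcripts (red) lie beyond both lines at the upper right and the 69 falling ones (blue) beyond both at the lower left.

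The whole grading was shallow for most members. Rising transcripts spanned 0.46 to 1.80 (log2) from yl_10 to yl_12 with a median of 0.78, and 9 of the 41 reached a 2-fold difference. Falling transcripts spanned -0.42 to -2.21 with a median of -0.71, and 17 of the 69 reached a 2-fold difference. Over all 4446 transcripts the median absolute difference between these strains was 0.11. The median first step, from yl_10 to yl_11, was 0.38 for rising and -0.35 for falling transcripts, and the median second step was 0.36 and -0.34. In single transcripts the steps were often uneven. The first step was the larger in 20 of 41 rising and 34 of 69 falling transcripts, and the larger step was at most 1.5 times the smaller in 21 and 39. It was over 3 times the smaller in 1 rising and 8 falling transcripts. Both steps reached 0.5 in 2 rising and 6 falling transcripts, among them YALI1_B07331g, YALI1_F30593g, YALI1_F08585g and YALI1_F25382g.

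The same criteria with another strain in the middle kept fewer transcripts. With yl_12 between yl_10 and yl_11 there were 17, and with yl_10 between yl_11 and yl_12 there were 11, against the 110 with yl_11 in the middle. Without the 3 libraries that stand apart the numbers were 30, 16 and 115. The comparisons share libraries, so these counts are given side by side with no test.

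The balance of rising and falling depended on the scaling. With library totals 37.3% of the members were rising, and with TMM factors, which correct for the composition of each library, 60 transcripts were rising and 53 falling (53.1% rising). All 41 rising members met the rule under TMM, and 53 of the 69 falling members did. The number of rising transcripts was 25 without yl_10 replicate 3 and 29 without all 3 libraries that stand apart.

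**Figure D2:**
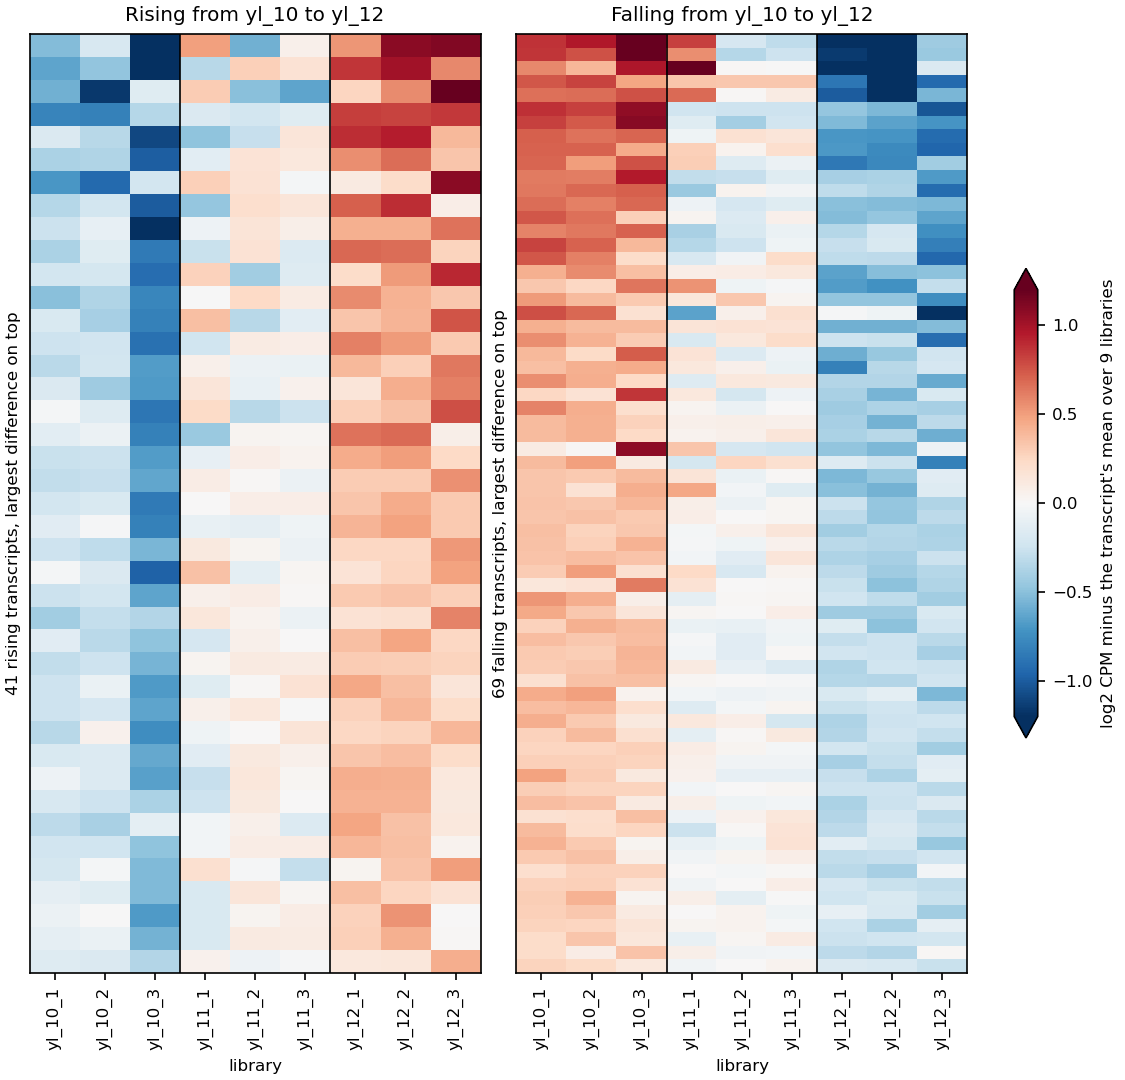
Log2 CPM of each member minus its own mean over the 9 libraries (colour), for 41 rising transcripts (left) and 69 falling ones (right), with libraries in columns and the largest difference between yl_10 and yl_12 on top. Colours are clipped at 1.2 in either direction. The yl_10 replicate 3 column is the bluest of the left panel, while the 3 yl_10 columns of the right panel are alike for most transcripts.

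Among the rising transcripts, the largest difference belonged to YALI1_B07331g (XM_500525.1). Its libraries held 7.52, 9.39 and 2.70 CPM in yl_10, then 15.2, 7.19 and 11.2 in yl_11, and finally 15.6, 22.8 and 23.3 in yl_12. The strains differed by 1.80 (log2) from yl_10 to yl_12, a 3.47-fold difference, but yl_11 overlapped yl_10, yl_10 replicate 3 was far below the other yl_10 libraries, and the transcript did not meet the rule without the 3 libraries that stand apart. YALI1_F30593g (XM_505784.1) held 125, 140.2 and 70.1 CPM in yl_10, then 154, 236 and 219 in yl_11, and finally 353, 389 and 290.0 in yl_12. All 3 strains were separate here, with steps of 0.90 and 0.77 (log2), and in each strain the library that stands apart was the lowest. YALI1_B29419g (XM_501224.1) held 203, 201 and 278 CPM in yl_10, then 312, 302 and 319 in yl_11, and finally 626, 618 and 633 in yl_12. Its yl_11 and yl_12 libraries were tightly grouped, the second step of 1.01 exceeded the first of 0.47, and the strains did not overlap. YALI1_D13071g (XM_502655.1) held 239, 243 and 157 CPM in yl_10, then 285, 349.7 and 341 in yl_11, and finally 459, 495 and 393 in yl_12. The strains were again separate, by 1.10 (log2) in all, with yl_10 replicate 3 the lowest of the 9 libraries.

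Other large differences among rising transcripts rested on less regular libraries. YALI1_E36619g (XM_504620.1) held 7.38, 4.94 and 9.95 CPM in yl_10, then 13.6, 7.77 and 7.09 in yl_11, and finally 13.1, 16.3 and 40.1 in yl_12. One yl_12 library stood far above the others, and yl_11 overlapped both neighbours. YALI1_C00550g (XM_501286.1) held 22.6, 20.2 and 11.9 CPM in yl_10, then 18.2, 21.0 and 28.1 in yl_11, and finally 46.9, 49.0 and 33.4 in yl_12. YALI1_C09072g (XM_501531.1) held 43.5, 47.3 and 27.7 CPM in yl_10, then 40.1, 63.6 and 61.0 in yl_11, and finally 90.7, 102 and 58.2 in yl_12. In both, yl_11 overlapped yl_10, and in YALI1_C09072g it also overlapped yl_12. The lowest library of each strain was in both the one that stands apart. YALI1_C29355g (XM_502084.1) held 8.79, 7.47 and 12.2 CPM in yl_10, then 17.4, 16.0 and 14.0 in yl_11, and finally 15.3, 16.6 and 30.2 in yl_12. Here that library was the highest of its strain in each case, and yl_11 and yl_12 overlapped. Of these 4 transcripts, only YALI1_C09072g met the rule again without the 3 libraries.

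**Figure D3:**
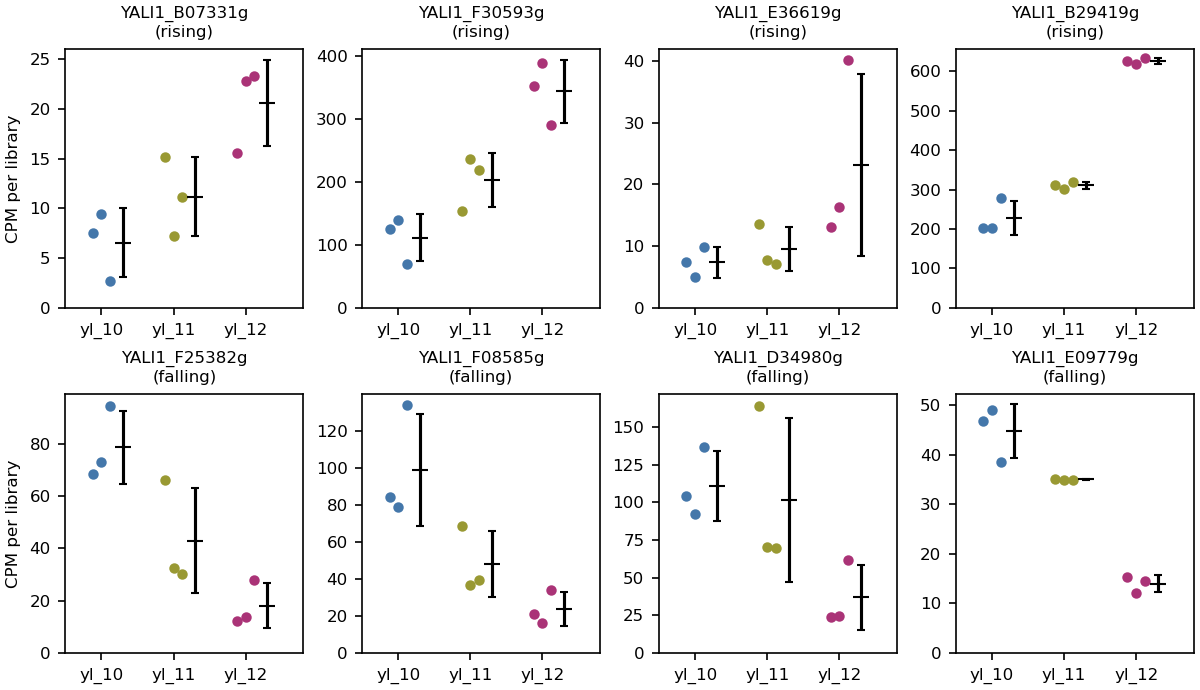
CPM in each library (points, replicates 1 to 3 from left to right) with the mean and SD over 3 libraries (bars) for the 4 rising (top) and 4 falling (bottom) transcripts with the largest log2 difference between yl_10 and yl_12. YALI1_B29419g and YALI1_E09779g have tightly grouped yl_11 and yl_12 libraries, while YALI1_E36619g and YALI1_D34980g show single libraries far from the others of their strain.

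Of the 4 most abundant rising transcripts, YALI1_B29419g is given above, and the other 3 differed by less than 1 (log2). YALI1_F31822g (XM_505829.1) had the highest level per length of all 110 members, at 994 FPKM (a level scaled to coding length and library total) on average, and its libraries held 507, 435 and 327 CPM in yl_10, then 737, 455 and 528 in yl_11, and finally 726, 762 and 973 in yl_12. The difference from yl_10 to yl_12 was 0.97 (log2), with yl_11 overlapping both strains. YALI1_B25833g (XM_501109.1), at 528 FPKM, held 436, 428 and 380.2 CPM in yl_10, then 502, 465 and 479 in yl_11, and finally 529, 532 and 656 in yl_12. The strains were separate, with steps of 0.22 and 0.24. Neither of these transcripts met the rule without the 3 libraries that stand apart. YALI1_E26377g (XM_504265.1) held 394, 397 and 291 CPM in yl_10, then 406, 483 and 466 in yl_11, and finally 563, 575 and 518 in yl_12, also with 3 separate strains and a difference of 0.63. The member with the lowest level per length was YALI1_E40864g (XM_504774.1), at 5.14 FPKM.

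Falling transcripts had larger extremes. YALI1_F25382g (XM_505603.1) held 68.4, 73.1 and 94.7 CPM in yl_10, then 66.1, 32.5 and 30.4 in yl_11, and finally 12.3, 13.7 and 27.9 in yl_12. That was a difference of -2.21 (log2), or 4.64-fold, the largest of all members. YALI1_F08585g (XM_505048.1) held 84.1, 78.9 and 134 CPM in yl_10, then 68.6, 36.7 and 39.2 in yl_11, and finally 21.0, 16.2 and 34.2 in yl_12, with nearly equal steps of -1.06 and -1.03. In both transcripts the strains were separate, and the highest library of each strain was the one that stands apart. YALI1_D34980g (XM_503318.1) held 104, 91.9 and 137 CPM in yl_10, then 164, 70.3 and 69.5 in yl_11, and finally 24.1, 24.6 and 61.7 in yl_12. Its yl_11 replicate 1 was above every yl_10 library, so that the first step of -0.23 averaged libraries on either side of yl_10. YALI1_C21578g (XM_501861.1) held 46.0, 46.4 and 49.6 CPM in yl_10, then 46.6, 29.4 and 31.3 in yl_11, and finally 14.6, 11.5 and 19.9 in yl_12, where yl_11 replicate 1 reached the yl_10 range.

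Several falling transcripts were far more regular. YALI1_E09779g (XM_503684.1) held 46.9, 49.0 and 38.7 CPM in yl_10, then 35.1, 35.0 and 35.0 in yl_11, and finally 15.3, 12.1 and 14.6 in yl_12, with 3 nearly equal libraries in yl_11 and most of the difference in the second step (-1.33 against -0.35). YALI1_E01019g (XM_503380.1) held 161, 153 and 158 CPM in yl_10, then 94.1, 111 and 108 in yl_11, and finally 60.3, 59.8 and 51.5 in yl_12. It combined a difference of -1.47 with a within-strain SD of 0.11 (log2), and no library crossed into another strain's range. YALI1_E40671g (XM_504765.1) held 203, 195 and 231 CPM in yl_10, then 93.8, 93.1 and 93.1 in yl_11, and finally 80.2, 76.3 and 54.3 in yl_12. The yl_11 libraries were within 1 CPM of each other, and the first step of -1.16 was the largest first step among falling transcripts. YALI1_D34710g (XM_503307.1) and YALI1_E40603g (XM_504763.1) were also separate in all strains, but less regular. Their within-strain SDs were 0.21 and 0.29 (log2), above the falling median of 0.14. Steps were -0.63 and -0.70 for the former and -0.53 and -0.51 for the latter. In YALI1_E40603g the highest yl_11 library, at 28.65 CPM, was just under the lowest yl_10 library, at 28.71 CPM, and the library that stands apart was the lowest of each strain.

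The most abundant falling transcripts were YALI1_F31001g (XM_505795.1), YALI1_D08884g (XM_502508.1), YALI1_E15583g (XM_503871.1) and YALI1_E15659g (XM_503874.1). YALI1_F31001g held 978, 1004 and 829 CPM in yl_10, then 766, 805 and 836 in yl_11, and finally 643, 649.6 and 675 in yl_12, and yl_11 replicate 3 exceeded yl_10 replicate 3, so those strains overlapped. YALI1_D08884g held 666, 646 and 665 CPM in yl_10, then 512, 468 and 498 in yl_11, and finally 424, 433 and 411 in yl_12, with 3 separate strains, a first step of -0.42 and a second of -0.22, but did not meet the rule without the 3 libraries that stand apart. Neither YALI1_F31001g nor YALI1_D08884g met the rule with TMM factors. Per length, the highest falling transcript was YALI1_F31798g (XM_505828.1), at 432 FPKM.

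Rising and falling members differed in how close the libraries of a strain lay to each other. The median SD within strains was 0.22 (log2) for rising and 0.14 for falling transcripts, against 0.086 for all 4446. The 3 strains were fully separate, with no library of one in the range of another, in 17 of 41 rising and 49 of 69 falling transcripts, where all transcripts within the limits gave 0.9% in rising and 4.41% in falling order. For rising transcripts yl_11 was clear of yl_10 in 19 and of yl_12 in 29, and for falling transcripts in 55 and 60. It was clear of neither in 10 rising and 3 falling transcripts. The rule asks for separate yl_10 and yl_12 libraries and for a minimum step, so these shares are in part fixed by it. Without the 3 libraries that stand apart, 22 of the 41 rising and 56 of the 69 falling members met the rule again, and of those with 3 separate strains 13 of 17 and 42 of 49.

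Among rising transcripts, yl_10 replicate 3 had the largest median deviation of the 9 libraries. In 36 of 41 (87.8%) yl_10 replicate 3 was the lowest yl_10 library, against 33 of 69 falling transcripts (47.8%) and 53.1% of all 4446. Its median deviation from the strain mean was -0.30 (log2) in rising transcripts, -0.01 in falling ones and -0.03 in all. Without this library the median first step of the 41 was 0.24 in place of 0.38, and 23 of the 41 met the rule again. A low library in yl_10 lowers the yl_10 mean and widens an upward first step. The rule itself thus favours rising members with a low yl_10 library, whichever it is, and these values are in part fixed by it. Replicates 1 and 2 were the lowest yl_10 library in 1 and 4 of the 41, against 21.1% and 25.8% of all 4446. Why replicate 3 was the lowest so often was not tested. All 3 libraries that stand apart were the lowest of their strain in 20 of 41 rising transcripts and 12 of 69 falling ones, against 18.4% of all, and all 3 were the highest in 2 and 14, against 6.88% of all. What sets these libraries apart is not given in the labels, and its part in the rising gradient was not tested.

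**Figure D4:**
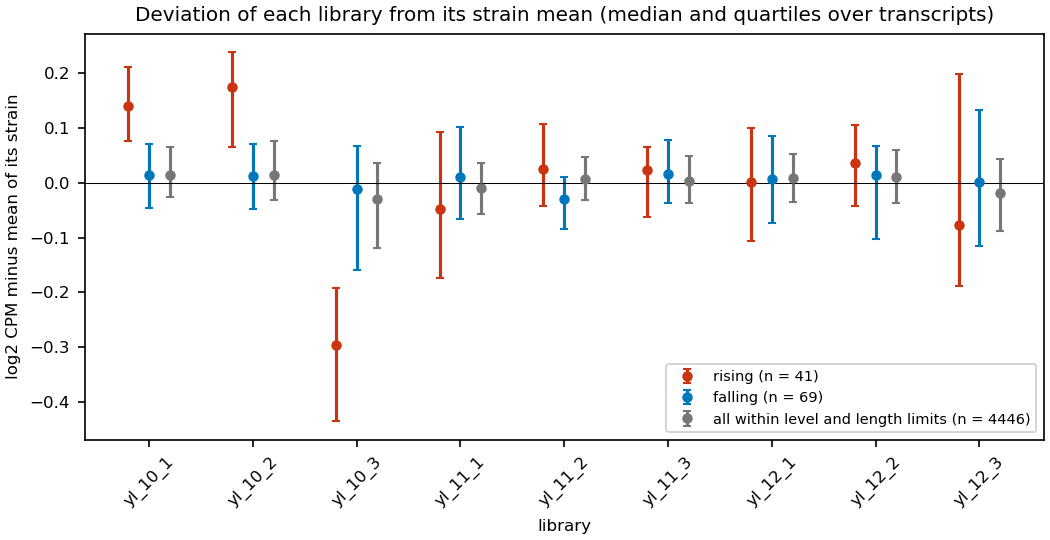
Deviation of log2 CPM of each library from the mean of its strain, as the median (points) and quartiles (bars) over 41 rising, 69 falling and all 4446 transcripts within the limits. For rising transcripts the yl_10 replicate 3 median lies at -0.30, while the medians of falling transcripts stay near 0 in all 9 libraries. Quartiles of falling transcripts lie on both sides of 0, at -0.11 and 0.13 in yl_12 replicate 3.

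A smaller set, chosen after the values were seen, met stricter demands. Its members had 3 separate strains and met the rule under TMM factors, after removal of any 1 of the 9 libraries, and after removal of the 3 that stand apart. It has 10 rising and 34 falling transcripts. The rising ones spanned 0.69 to 1.67 (log2) and the falling ones 0.54 to 2.21 in size. Besides YALI1_F30593g, YALI1_B29419g and YALI1_D13071g, it contains YALI1_B21675g (XM_500982.1), with 310.1, 313 and 234 CPM in yl_10, then 349, 395 and 385 in yl_11, and finally 509, 528 and 440.0 in yl_12. Also in it is YALI1_F10224g (XM_505102.1), at 17.0, 18.7 and 13.9 CPM in yl_10, then 24.0, 28.4 and 25.6 in yl_11, and finally 35.6, 32.2 and 30.1 in yl_12. The yl_10, yl_11 and yl_12 libraries formed 3 steps in each of these. On the falling side it contains YALI1_F07990g (XM_505029.1), with 127, 124 and 125 CPM in yl_10, then 101, 104 and 105 in yl_11, and finally 87.2, 86.9 and 82.7 in yl_12, and YALI1_F39620g (XM_506117.1), with 139, 134 and 146 CPM in yl_10, then 109, 106 and 113 in yl_11, and finally 87.7, 85.8 and 85.0 in yl_12. Both have even steps, with within-strain SDs of 0.031 and 0.049 (log2). It further holds YALI1_D22997g (XM_502983.1), at 65.6, 72.1 and 62.4 CPM in yl_10, then 51.5, 51.8 and 53.0 in yl_11, and finally 31.3, 34.2 and 34.6 in yl_12, where the second step of -0.64 exceeded the first of -0.35.

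At the limit of the rule the members shaded into the rest of the table. Just inside a smaller step of 0.2 were YALI1_E27649g (XM_504311.1) and YALI1_C28456g (XM_502049.1) among rising transcripts, with smaller steps of 0.21 each, and YALI1_A02682g (XM_499683.1) and YALI1_C33055g (XM_502205.1) among falling ones, with -0.21 each. Just outside were YALI1_B13641g (XM_500705.1) and YALI1_E38677g (XM_504694.1), at 0.19 each, and YALI1_C13689g (XM_501657.1) and YALI1_E01589g (XM_503399.1), at -0.20 each and under the limit before rounding. Between 0.15 and 0.2 lay 25 further rising and 54 further falling transcripts that met every other criterion. A limit of 0.3 kept 21 and 26, and a limit of 0.1 gave 100 and 265.

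In the edgeR quasi-likelihood test over all 6147 features that passed the low-count filter, members were counted in each contrast at an adjusted p below 0.05. For yl_12 against yl_10, 35 of 41 rising transcripts were called higher, where 7% of all features were, and 65 of 69 falling ones lower, where 7.81% were. At the first step, yl_11 against yl_10, the calls were 8 rising (background 1.68%) and 31 falling (2.49%). At the second, yl_12 against yl_11, they were 14 rising (3.2%) and 27 falling (3.84%). The F test among the strains called 26 rising and 59 falling members, with a background of 15%. All 3 contrasts were called in 6 rising and 21 falling members, and none in 6 and 4. The matching shares of all features are not given, so these member counts have no background and are a description only. The split of calls over all features moved with the scaling. With TMM factors 430 features were called higher and 480 lower in yl_12 against yl_10, and with library totals, the scaling of the rule, 264 and 791. At the first step the split was 103 and 153 with TMM and 66 and 196 with library totals, and at the second 197 and 236 against 115 and 296. Because the rule used these contrasts, nothing is read from the shares.

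The calls at single steps moved with the scaling, the tool and the libraries included. With library totals edgeR called 6 rising and 30 falling members at the first step and 4 and 31 at the second, and DESeq2 called 17 and 39 at the first and 22 and 31 at the second. At the first step the rising calls were 3, 5 and 7 when replicate 1, 2 or 3 of yl_10 was removed, 3, 2 and 3 when one of yl_11 was, and 7, 5 and 12 when one of yl_12 was. The falling calls there were 11, 12 and 30, then 16, 9 and 13, then 22, 22 and 42 in the same order. At the second step the rising calls were 7, 10 and 22, then 3, 4 and 3, then 3, 3 and 14, and the falling calls 23, 23 and 33, then 17, 21 and 17, then 17, 14 and 34. Without the 3 libraries that stand apart they were 29 rising and 58 falling at the first step and 38 and 55 at the second. In that fit 1 rising member, YALI1_D24997g (XM_503042.1), was called lower in yl_11 than in yl_10. Calls over all features moved as well. DESeq2 called 156 higher and 212 lower of 6147 features at the first step, and 248 and 239 at the second. With 1 library left out, edgeR called 63 to 519 features at the first step and 190 to 718 at the second. Without the 3 libraries it called 624 higher and 611 lower of 6149 at the first step, and 803 and 711 at the second. Nothing is read from the members' counts.

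Members of both directions lay next to each other in the genome. Of the 110 members, 105 had a gene in the reference table, and 8 pairs were direct neighbours among its protein-coding genes, 4 of them both falling and 4 with 1 rising and 1 falling gene. They were drawn from 2376 neighbouring pairs with both genes within the limits. A further 7 pairs had 1 to 3 genes between them, of which 4 shared a direction and 3 did not. The build behind the counts is not given in the sources used here, so only the order of genes is used. Strand in counting is not given either, and reads of overlapping or antisense neighbours could not be told apart.

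The longest stretch was on chromosome E, where YALI1_E15555g (XM_503869.1), YALI1_E15559g (XM_503870.1) and YALI1_E15583g stood in a row and YALI1_E15659g followed after 3 genes. YALI1_E15555g held 48.8, 46.1 and 58.8 CPM in yl_10, then 25.0, 20.8 and 23.6 in yl_11, and finally 19.1, 17.7 and 16.9 in yl_12. YALI1_E15559g held 98.7, 94.3 and 100.1 CPM in yl_10, then 59.5, 53.7 and 56.0 in yl_11, and finally 43.8, 43.1 and 42.6 in yl_12. YALI1_E15583g held 570.2, 550.2 and 552 CPM in yl_10, then 471, 478 and 474 in yl_11, and finally 285, 284 and 295 in yl_12. The first step shrank along the row, from -1.14 through -0.79 to -0.23 (log2), while the second was -0.36, -0.38 and -0.72. YALI1_E15583g had the smallest spread of all members, with an SD of 0.026 (log2) within strains. YALI1_E15659g held 486, 505 and 443 CPM in yl_10, then 386, 391 and 413 in yl_11, and finally 288, 297 and 249.6 in yl_12, again with 3 separate strains. Between them, YALI1_E15625g differed by -0.06 from yl_10 to yl_12, and YALI1_E15629g, too scarce for the rule at 3.12, 1.92 and 1.41 CPM in the 3 strains, differed by -1.11. YALI1_E15718g, on the far side, differed by -0.08.

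Same-direction neighbours also occurred as YALI1_B21134g (XM_500963.1) with YALI1_B21155g (XM_500964.1), and as YALI1_F15291g (XM_505291.1) with YALI1_F15311g (XM_505292.1), all falling. YALI1_F15291g held 95.7, 96.4 and 94.2 CPM in yl_10, then 80.0, 76.1 and 76.8 in yl_11, and finally 60.9, 54.7 and 61.1 in yl_12, and YALI1_F15311g held 37.6, 41.7 and 40.4 CPM in yl_10, then 29.3, 29.1 and 30.2 in yl_11, and finally 28.0, 22.1 and 26.4 in yl_12. Both were separate in all strains, and the nearest measured genes on either side differed by -0.26 (YALI1_F15265g) and -0.25 (YALI1_F15334g) from yl_10 to yl_12. YALI1_B21155g held 104, 108 and 110.0 CPM in yl_10, then 49.2, 69.1 and 64.9 in yl_11, and finally 54.3, 52.2 and 35.5 in yl_12. The scarcer YALI1_B21134g differed by -0.54. In both YALI1_B21155g and YALI1_B21134g, yl_11 overlapped yl_12. The 4 same-direction pairs met the rule again without the 3 libraries that stand apart, but YALI1_B21134g and YALI1_F15311g did not meet it with TMM factors, so both of these pairs lost a member under that scaling.

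In the 4 opposite pairs, a rising gene stood beside a falling one. YALI1_F26519g (XM_505641.1) held 97.9, 100.4 and 63.2 CPM in yl_10, then 114, 120.2 and 120.2 in yl_11, and finally 143, 155 and 141 in yl_12, and its neighbour YALI1_F26574g (XM_505642.1) held 478, 475 and 599 CPM in yl_10, then 252, 255 and 279 in yl_11, and finally 234, 238 and 193 in yl_12. The former had larger values in each later strain, the latter smaller ones, with most of its difference in the first step of -0.97. YALI1_F26574g did not meet the rule without the 3 libraries that stand apart. YALI1_F31822g, given above, stood beside YALI1_F31798g, which held 368, 347 and 720.2 CPM in yl_10, then 432, 298 and 290.1 in yl_11, and finally 247, 236 and 329 in yl_12. In yl_10 replicate 3 the latter was far above the other yl_10 libraries, while YALI1_F31822g was at its lowest. In YALI1_F31798g, too, yl_11 overlapped both other strains. YALI1_E26377g stood beside YALI1_E26433g (XM_504266.1), at 15.3, 16.0 and 16.2 CPM in yl_10, then 13.0, 12.4 and 11.3 in yl_11, and finally 6.76, 9.46 and 10.4 in yl_12. YALI1_F34324g (XM_505928.1), at 76.6, 67.3 and 60.3 CPM in yl_10, then 73.1, 87.7 and 84.4 in yl_11, and finally 108, 117 and 100.1 in yl_12, stood beside YALI1_F34351g (XM_505929.1), at 18.7, 17.0 and 16.2 CPM in yl_10, then 14.3, 16.3 and 13.4 in yl_11, and finally 9.39, 9.38 and 7.78 in yl_12. In both YALI1_F34324g and YALI1_F34351g, yl_11 overlapped yl_10. Without the 3 libraries that stand apart, both members of 2 of these 4 pairs met the rule again. They were YALI1_E26377g with YALI1_E26433g and YALI1_F34324g with YALI1_F34351g. With TMM factors YALI1_F31798g did not meet the rule.

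**Figure D5:**
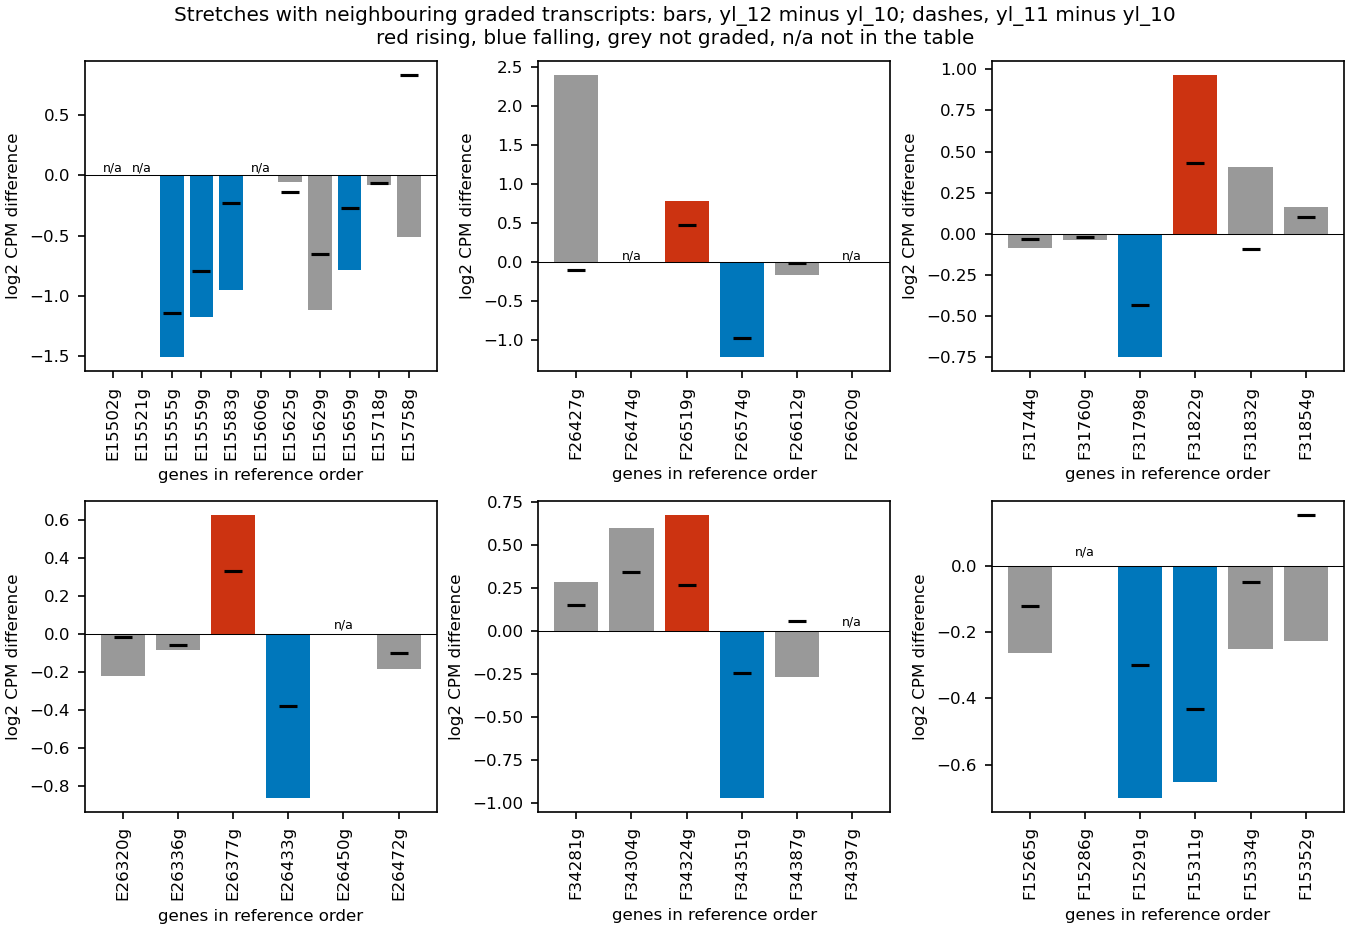
Log2 CPM difference between yl_12 and yl_10 (bars) and between yl_11 and yl_10 (dashes) for genes in reference order around 6 stretches with neighbouring members. Red bars are rising members, blue bars falling members, grey bars other features, and n/a marks reference genes without a row in the count table. Opposite neighbours such as YALI1_F26519g and YALI1_F26574g appear as adjoining red and blue bars, and dashes lie between 0 and the end of the bar for every member.

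Chromosome, length and level per length were set beside those of all transcripts within the limits. Rising members were on all 6 chromosomes, with 9 of 41 (22%) on B and 9 on E, where 14.5% and 22.2% of the 4446 transcripts lie. Falling members were most numerous on E, with 20 of 69 (29%), and on F, with 15 (21.7%, against 20.5% of all). The median coding length was 1422 bp for rising and 1167 bp for falling members and 1305 bp for all. Mean level per length had a median of 59.4 FPKM in rising, 50.3 FPKM in falling and 51.9 FPKM in all transcripts within the limits. Length and level were bounded by the rule, and no test was made.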

How the data were processed

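RNA sequencing counts of 9 Y. lipolytica libraries (3 strains, 3 libraries each) were analysed. The authors deposited a table of raw read counts, and the submitters' processing notes name HTSeq 0.6.1 and DESeq 1.18.0 without saying for which step. The authors also deposited FPKM values, which equal the counts divided by length and library total, and these gave the coding lengths and the levels per length. For aligner, build and strand, nothing was given in the sources used here. Of 5959 XM accessions, 5430 were matched, ignoring versions, to RefSeq genes (assembly ASM176148v1) for locus tags and gene order. With no product names or sequences in it, the gene lists and sequence features planned could not be used.

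Members were found by the rule on log2 CPM from library totals. The whole count table was fitted with edgeR 4.0.16 in R 4.3.3 (TMM factors, expression filter by strain, robust quasi-likelihood test, strain as the only term, Benjamini-Hochberg adjusted p below 0.05). The fit was also run on simulated data, with libraries drawn independently and without the shared departures of the 3 libraries that stand apart. That run could not show how such departures bear on the calls. DESeq2 1.42.0, other scalings, no filter, a replicate block and libraries left out were alternatives. The text names, per direction, the 8 members with the largest difference, the 5 with the largest smaller step, the 4 most abundant, those nearest the step limit, and direct neighbours of 1 direction. Neighbours of opposite direction and other names were chosen after their values were seen. The members, lists and tests were chosen with earlier results of these data known.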

Additional observations from a re-analysis of the deposited data

How the results depend on the processing

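The count of 41 rising transcripts ranged from 25 (without yl_10 replicate 3) to 59 when 1 library was left out, and that of 69 falling transcripts from 66 to 86. The transcripts themselves changed more than the counts. Only 15 of the 41 rising and 36 of the 69 falling members met the rule in all 9 of these removals. The 86 falling transcripts without yl_10 replicate 3 included 62 of the 69. A step of 0.3 gave 21 rising and 26 falling transcripts, a step of 0.1 gave 100 and 265, and a demand that all 3 strains be separate left 17 rising ones. These settings narrow or widen the rule by construction. Adding a count of 2, using FPKM, or removing the mean of each replicate number (replicate block, 46 and 74) kept both counts within 1.5 times. FPKM differs from CPM only by the coding length, and the replicate block leaves the differences between strain means as they were. Neither setting could therefore move the steps to any degree, and the block could only change the overlap of libraries. Features called by edgeR numbered 256 for yl_11 against yl_10 (63 to 519 with 1 library left out, 151 with the replicate block, 1235 without the 3 libraries that stand apart), 910 for yl_12 against yl_10 (613 to 989, 757 with the block, 1920 without the 3), 433 for yl_12 against yl_11 (190 to 718, 328 with the block, 1514 without the 3) and 920 in the F test (547 to 1232, 2357 without the 3). The cause was not tested. The deviations of same-numbered libraries had r from -0.53 to 0.40 over 9 pairs. The labels do not say what the number marks, and whether it is a pairing was not tested. Of 44 named features, 38 were called for yl_12 against yl_10, and 8 lost the call in at least 1 alternative. None of the 704 alternative values changed sign, but these features were chosen with separate yl_10 and yl_12 libraries, which largely fixed that sign. At the first step, 6 of 8 rising and 22 of 31 falling member calls were lost in at least 1 alternative. At the second step, 13 of 14 rising and 14 of 27 falling member calls were lost. At 10 CPM the smallest library holds 70.4 counts, and how depth bears on membership was not tested.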

Other observations

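Beyond the limits of level and length, 12 further transcripts with at least 10 CPM met the criteria on steps and overlap, 7 rising and 5 falling. Of the rising ones 5 were above the upper level, 1 was shorter and 2 were longer than the limits allow, with 1 transcript in 2 of these classes. XM_503602.1, which has no locus tag, held 1118, 1264 and 966 CPM in yl_10, then 1937, 2023 and 1893 in yl_11, and finally 2314, 2238 and 2891 in yl_12. YALI1_D04128g (XM_502357.1) held 802, 830.1 and 577 CPM in yl_10, then 961, 1165 and 1149 in yl_11, and finally 1585, 1592 and 1546 in yl_12. Both were separate in all strains and met the criteria again without the 3 libraries that stand apart. XM_505464.1, a coding length of 168 bp, held 7.38, 8.67 and 4.12 CPM in yl_10, then 13.6, 10.1 and 13.2 in yl_11, and finally 21.0, 24.3 and 19.2 in yl_12. YALI1_A10857g (XM_499957.1), the most abundant at 5597 CPM on average, had steps of 0.26 and 0.23 (log2).

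Among the falling ones, YALI1_E22238g (XM_504109.1) held 1357, 1324 and 1476 CPM in yl_10, then 1135, 1029.7 and 1067 in yl_11, and finally 634, 613 and 865 in yl_12, with 3 separate strains. YALI1_E17326g (XM_503936.1) held 1406, 1426 and 2973 CPM in yl_10, then 1672, 1129 and 1234 in yl_11, and finally 888, 841 and 1294 in yl_12, where yl_10 replicate 3 was far above the other yl_10 libraries and yl_11 replicate 1 was above 2 of the yl_10 libraries. The short YALI1_C18209g (XM_501783.1), of 183 bp, held 34.8, 32.0 and 23.5 CPM in yl_10, then 24.9, 15.6 and 18.2 in yl_11, and finally 6.43, 5.69 and 10.4 in yl_12 and had the largest difference of these 12, at -2.03 (log2) from yl_10 to yl_12. All 5 falling and 5 of the 7 rising transcripts met the criteria again without the 3 libraries.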
